A study of Homo sapiens with 6 samples.

Results

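The collagen genes of MHCC97H cells were described in 6 RNA sequencing libraries, 3 from a DDX17 knockout line and 3 from its control line. Collagen genes were taken by symbol, as COL, a type number, A and a chain number. The rule found 44 of the 58302 genes in the deposited table. Of these, 16 averaged 0.5 FPKM or more over the 6 libraries and were tested, among 15620 such genes in all. FPKM is the number of fragments per kilobase of transcript, scaled to the library's total of mapped fragments.

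MHCC97H is a human hepatocellular carcinoma line known for metastatic growth. The DDX17_KO line and the non-target control line were both made with CRISPR/Cas9 and grown in DMEM with serum and penicillin-streptomycin, and no further agent is named in the labels. DDX17 is an RNA helicase of the DEAD-box family, and the study asked by which route it acts on liver cancer progression. Whether a line was 1 clone or a pool is not stated in the labels, nor whether its 3 libraries came from separate cultures, so each p-value rests on the spread among these libraries alone, which may be technical. The libraries are called controls 1 to 3 and KO 1 to KO 3 by the numbers in their titles.

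Collagens are extracellular matrix proteins built from chains that wind into a triple helix. Fibrillar collagens form the tensile fibrils of connective tissue, type IV collagens form the network of basement membranes, and fibril-associated collagens sit on the surface of fibrils. Other classes make anchoring fibrils, beaded filaments or membrane proteins, and the multiplexins carry sugar chains in basement membranes. In liver, most fibrillar collagen comes from stellate cells and fibroblasts, and tumour cells can add matrix of their own.

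DDX17 itself was at 45.7, 41.4 and 43.9 FPKM in controls 1 to 3 and 22.4, 7.64 and 19.1 FPKM in KO 1 to KO 3. The groups did not overlap (two-sided exact permutation p = 0.1, which 3 against 3 libraries cannot go below). The limma log2 fold change of DDX17 was -1.48, with an adjusted p of 0.282. Estimated depth ran from 5350000 fragments in KO 2 to 14580000 in control 3, so KO 2 was both the shallowest library and the one with the least DDX17. Of the hepatocyte markers, 0 of 9 exceeded 1 FPKM in any library, while the epithelial keratin KRT18 was at 188, 233 and 200.1 FPKM in controls 1 to 3 and 156, 169.6 and 239 FPKM in KO 1 to KO 3. The epithelial markers EPCAM and CDH1 were near 0, at no more than 0.128 and 0.116 FPKM in any library.

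The larger differences among the 16 tested collagens went both ways. COL12A1 and COL3A1 lay higher in DDX17_KO, by log2 fold changes of 1.65 and 0.89, and COL18A1, COL5A1, COL7A1, COL4A2, COL1A1 and COL4A1 lay lower, from -0.98 to -0.60. With all 6 libraries 0 of the 16 passed limma at an adjusted p of 0.05, where 0.0384% of all tested genes passed. Voom on approximate fragments also called 0, against 0.0321% of genes. At an unadjusted p under 0.05 there were 9 of the 16, against 13.5% of all tested genes. These were 2 higher, against 6.31%, and 7 lower, against 7.19%. By the same threshold there were also 9 with the replicate number as a block, against 28.6% of genes, and 8 without KO 2, against 35.8%. The median transcript length was 6738.5 bases for the 16, beside 2633 for all tested genes. The shares of all genes, here and below, were not matched for length or level.

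Leaving out KO 2 gave calls, which rest on KO 1 and KO 3 alone. These kept more DDX17, at 22.4 and 19.1 FPKM, than KO 2, at 7.64 FPKM. Leaving out KO 1 or KO 3 in place of KO 2 gave 0 calls among the 16, with 9 and 3 of all 15620 tested genes called. Without KO 2, 5 of the 16 passed at the adjusted threshold, against 3.66% of all tested genes. COL12A1 rose, against 1.95% of genes rising, and COL7A1, COL4A2, COL5A1 and COL1A1 fell, against 1.72% falling. Without both libraries numbered 2 there were 6, with COL4A1 added, against 8.81% of genes. The log2 difference of COL12A1 was 2.35 without KO 2 and 1.97 without both.

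In 9 of the 16 the groups stood apart without overlap, against 20.7% of all tested genes. DDX17_KO was below every control in 8, against 12.6%, and above every control in 1, against 8.09%. The median log2 fold change of the 16 was -0.21, beside -0.026 over all tested genes. Members above 0 numbered 4 and members below 0 numbered 12, where 52.5% of all tested genes lay below 0.

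**Figure D1:**
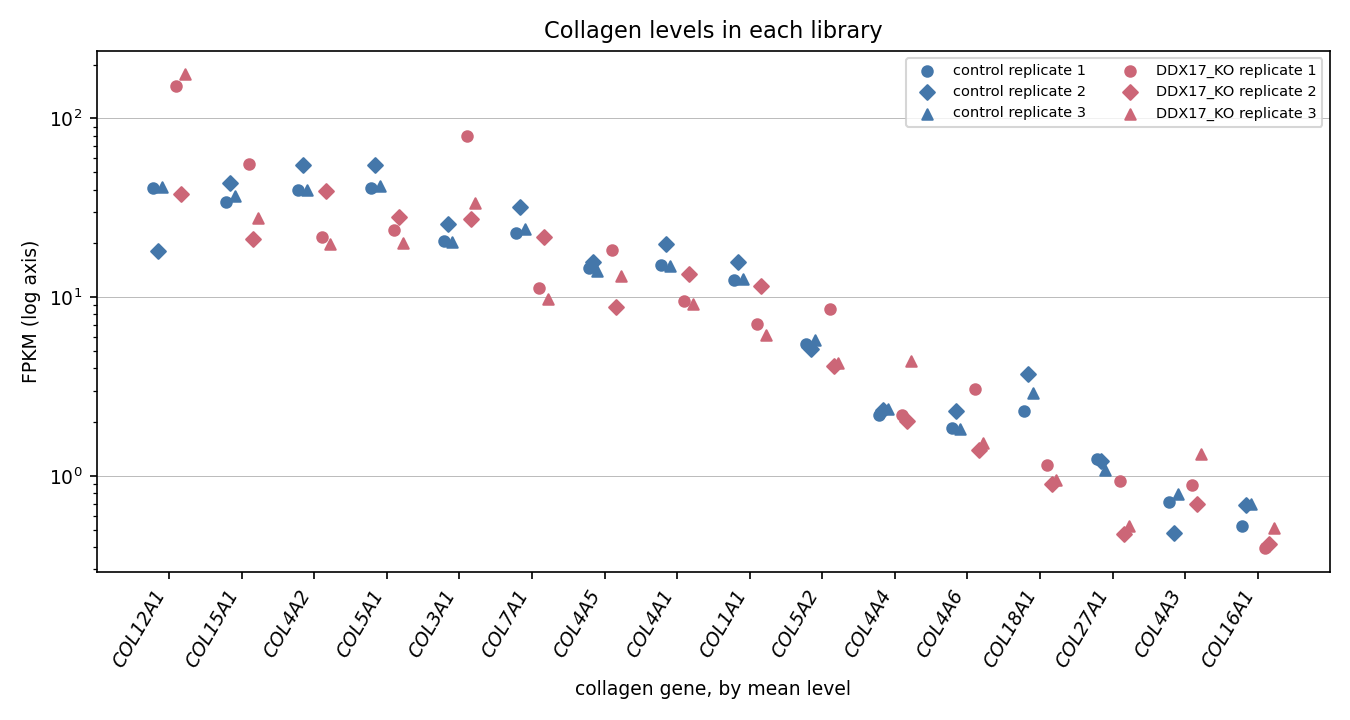
FPKM on a log axis for the 16 tested collagen genes in each of 6 libraries; blue points are control, red points DDX17_KO, and the marker gives the replicate. COL12A1 reaches 152 and 176 FPKM in KO 1 and KO 3, while the red points of COL5A1, COL7A1 and COL18A1 lie below the blue ones.

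COL12A1 encodes the chain of type XII collagen, a fibril-associated collagen that links fibrils to their surroundings. Its locus is chromosome 6, 75084326 to 75206051 (hg38, minus strand, ENSG00000111799). COL12A1 was at 40.8, 18.1 and 41.5 FPKM in controls 1 to 3 and 152, 37.8 and 176 FPKM in KO 1 to KO 3. KO 1 and KO 3 thus lay far above every control, while KO 2 lay within the control range. Group means were 33.4 ± 13.3 FPKM for control and 122 ± 73.9 FPKM for DDX17_KO (SD, n = 3 libraries each).

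The difference came to 1.65 on the log2 scale (SE 0.60, 95% confidence interval 0.26 to 3.05, limma adjusted p = 0.366). Without KO 2, COL12A1 rose by 2.35 (limma adjusted p = 0.0353). COL12A1 passed in 3 of the 20 other settings, this one among them, with limma adjusted p from 0.0349 to 0.790. Taken against the control of the same number, KO 1, KO 2 and KO 3 were higher by 1.87, 1.02 and 2.06 log2 units. Control 2 was the lowest control, so each DDX17_KO library was above the control with its number.

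COL12A1 and COL7A1, which had the largest differences in each direction among the calls made without KO 2, are shown with the 150 bases before their RefSeq starts on GRCh38.p14, each read 5′ to 3′ on the gene's own strand. Capitals mark the GC box, GGGCGG or its reverse complement CCGCCC, the letters bound by Sp1-type factors.
COL12A1, chr6:75206054-75206203, minus strand: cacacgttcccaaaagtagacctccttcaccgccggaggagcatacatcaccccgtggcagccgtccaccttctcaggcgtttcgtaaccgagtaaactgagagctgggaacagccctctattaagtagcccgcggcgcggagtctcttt
COL7A1, chr3:48595330-48595479, minus strand: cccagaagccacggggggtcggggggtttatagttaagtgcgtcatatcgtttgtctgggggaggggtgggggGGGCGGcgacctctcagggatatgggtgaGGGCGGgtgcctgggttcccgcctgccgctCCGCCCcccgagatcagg
The stretch before COL7A1 held 3 GC boxes and that before COL12A1 held 0. Among 27305 RefSeq promoters, 36% held a GC box in the same 150 bases. The GC content was 57.3% before COL12A1 and 68% before COL7A1. Over the whole 300-base RefSeq window, which runs on past the start, 11 of the 13 tested collagens with a listed promoter held a GC box on either strand, COL12A1 among them, against 43.8% of all promoters. In that window TATAAA, on either strand, occurred in COL7A1 alone among the 13, against 12.1% of all promoters. A match in letters is a description and not a binding site.

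Among fibrillar collagens, COL3A1 and COL5A1 were the most abundant and lay on opposite sides of 0. COL3A1 encodes the chain of type III collagen, a homotrimer of reticular fibres (chromosome 2, 188974320 to 189012746). COL3A1 was at 20.7, 25.6 and 20.5 FPKM in controls 1 to 3 and 79.8, 27.2 and 33.5 FPKM in KO 1 to KO 3. It was the 1 tested collagen in which every DDX17_KO library exceeded every control, by a small margin in KO 2. The difference was 0.89 on the log2 scale (SE 0.38, limma adjusted p = 0.369), and it was 0.43 without KO 1, the highest library. COL3A1 passed in 0 of 20 other settings, with limma adjusted p from 0.0771 to 0.790.

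COL5A1 encodes the main chain of type V collagen, which starts the assembly of fibrils (chromosome 9, 134641774 to 134844843). Levels were 41.0, 54.6 and 42.1 FPKM in controls 1 to 3 and 23.7, 28.0 and 20.1 FPKM in KO 1 to KO 3. The groups stood well apart, with the highest DDX17_KO library below the lowest control. On the log2 scale the difference was -0.91 (SE 0.21, 95% confidence interval -1.40 to -0.42, limma adjusted p = 0.276). Without KO 2, COL5A1 fell by 1.02 (limma adjusted p = 0.0454). COL5A1 passed in 2 of the 20 other settings, this one among them, with limma adjusted p from 0.0369 to 0.790.

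COL5A2, the partner chain of COL5A1 in the common form of type V collagen, was at 5.50, 5.15 and 5.75 FPKM in controls 1 to 3 and 8.60, 4.14 and 4.26 FPKM in KO 1 to KO 3 (chromosome 2, 189031896 to 189179879). Its DDX17_KO libraries lay on both sides of the controls, with a difference of -0.019 (95% confidence interval -0.63 to 0.60). The FPKM ratio of COL5A1 to COL5A2 was 7.45, 10.6 and 7.33 in controls 1 to 3 and 2.76, 6.77 and 4.73 in KO 1 to KO 3. Every DDX17_KO ratio was below every control ratio, and the log2 ratio differed by -0.89. The exact permutation p, two-sided, was 0.1, which is the lowest this design allows, and 0.3 when adjusted over the 3 chain pairs compared. In each group the library numbered 2 had the highest ratio. The transcript GC content was 60.3% for COL5A1 and 47.9% for COL5A2, and the ratio was not corrected for it. After GC and length correction the log2 differences of the chains were -0.77 and -0.064.

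COL1A1, the alpha 1 chain of type I collagen, the main collagen of scar tissue (chromosome 17, 50183289 to 50201632), was expressed almost without its partner. COL1A1 was at 12.4, 15.7 and 12.7 FPKM in controls 1 to 3 and 7.04, 11.5 and 6.11 FPKM in KO 1 to KO 3. All DDX17_KO libraries were below all controls, KO 2 by the least. The log2 difference was -0.70 (SE 0.25, limma adjusted p = 0.365). Without KO 2, COL1A1 fell by 0.94 (limma adjusted p = 0.0449). COL1A1 passed in 2 of the 20 other settings, this one among them, with limma adjusted p from 0.0369 to 0.790.

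COL1A2, the alpha 2 chain (chromosome 7, 94394561 to 94431232), was listed at 0 in 4 libraries and at 0.0098 and 0.0147 FPKM in control 1 and KO 3, less than 1 fragment each. A count of 3 fragments would make 0.0343 FPKM at COL1A2 in the deepest library and 0.0936 FPKM in the shallowest. Against that floor per library, COL1A1 was at least 306-, 435- and 370-fold higher than COL1A2 in controls 1 to 3, and at least 149-, 123- and 100.1-fold higher in KO 1 to KO 3. In most tissues type I collagen holds both chains, and a form with alpha 1 chains only is known from embryos and tumours. Protein was not measured here.

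COL27A1, a fibrillar collagen best known from cartilage (chromosome 9, 114155560 to 114312511), was low, at 1.24, 1.21 and 1.08 FPKM in controls 1 to 3 and 0.933, 0.476 and 0.525 FPKM in KO 1 to KO 3. Its groups did not overlap, its log2 difference was -0.41, and its limma adjusted p was 0.369. With a pseudocount of 0.01 the difference was -0.92.

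All 6 type IV chains, which make the network of basement membranes, reached the level tested. They are arranged as neighbouring genes that start back to back, COL4A1 with COL4A2 on chromosome 13, COL4A3 with COL4A4 on chromosome 2 and COL4A5 with COL4A6 on chromosome X. The RefSeq starts of these pairs lay 127, 419 and 380 bases apart. The stretch between the starts of COL4A1 and COL4A2 is shown because both genes lay lower together. It is read 5′ to 3′ on the plus strand of GRCh38.p14, so COL4A2 starts to its right and COL4A1 to its left, with a GC box in capitals.
COL4A1 to COL4A2, chr13:110307158-110307283: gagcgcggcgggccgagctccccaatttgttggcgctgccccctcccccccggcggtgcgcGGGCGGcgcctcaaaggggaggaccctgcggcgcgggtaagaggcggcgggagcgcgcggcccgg
The stretch of 126 bases had a GC content of 80.2%. It held 1 GC box, found in 33.8% of promoters over the 126 bases before the start, and 1 CCAAT, found on either strand in 21.7%.

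COL4A2 was the most abundant type IV chain (chromosome 13, 110305812 to 110513027), at 39.6, 55.2 and 39.7 FPKM in controls 1 to 3 and 21.8, 39.2 and 19.9 FPKM in KO 1 to KO 3. COL4A1 (chromosome 13, 110148963 to 110307149) was at 15.2, 19.9 and 15.0 FPKM in controls 1 to 3 and 9.54, 13.4 and 9.15 FPKM in KO 1 to KO 3. In both chains every DDX17_KO library was below every control, in COL4A2 by less than 1 FPKM for KO 2. In both also, the library numbered 2 was the highest of its group. The log2 differences were -0.76 for COL4A2 (SE 0.29, limma adjusted p = 0.369) and -0.60 for COL4A1 (SE 0.22, limma adjusted p = 0.366).

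Without KO 2, COL4A2 fell by 1.05 (limma adjusted p = 0.0469). COL4A2 passed in 2 of the 20 other settings, this one among them, with limma adjusted p from 0.0349 to 0.790. COL4A1 had -0.76 without KO 2 (limma adjusted p = 0.0584) and passed in 1 of 20 other settings. The FPKM ratio of COL4A1 to COL4A2 was 0.374 ± 0.0115 for control and 0.413 ± 0.0621 for DDX17_KO (SD, n = 3 libraries each). The log2 ratio differed by 0.15, with exact permutation p = 0.4, and 0.5 adjusted over the 3 pairs. Their loci overlap by 1338 bases on opposite strands. No label states that strand was used in counting, so fragments from that stretch cannot be assigned to 1 chain with certainty.

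The remaining type IV chains overlapped between the groups. COL4A5, which is mutated in Alport syndrome of the kidney (chromosome X, 108439844 to 108697545), was at 14.6, 15.8 and 13.9 FPKM in controls 1 to 3 and 18.3, 8.77 and 13.2 FPKM in KO 1 to KO 3. COL4A6, its neighbour (chromosome X, 108155607 to 108439497), was at 1.86, 2.32 and 1.83 FPKM in controls 1 to 3 and 3.05, 1.40 and 1.52 FPKM in KO 1 to KO 3. In both, KO 1 was the highest and KO 2 the lowest of the 6 libraries. Their log2 differences were -0.18 (95% confidence interval -0.79 to 0.43) and -0.045 (-0.59 to 0.50). The ratio of COL4A5 to COL4A6 was 7.41 ± 0.526 for control and 6.99 ± 1.48 for DDX17_KO (SD, n = 3 libraries each), with exact permutation p = 0.5, also after adjustment over the 3 pairs.

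COL4A4 and COL4A3, the further chains of the kidney type network, were low. COL4A4 (chromosome 2, 227002711 to 227164113) was at 2.20, 2.33 and 2.37 FPKM in controls 1 to 3 and 2.19, 2.04 and 4.38 FPKM in KO 1 to KO 3. COL4A3 (chromosome 2, 227164565 to 227314792) was at 0.716, 0.476 and 0.793 FPKM in controls 1 to 3 and 0.888, 0.694 and 1.33 FPKM in KO 1 to KO 3. KO 3 was the highest library for both. The log2 differences were 0.18 (95% confidence interval -0.39 to 0.74) and 0.24 (-0.20 to 0.67).

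COL7A1 encodes the chain of type VII collagen, which forms the anchoring fibrils under epithelia (chromosome 3, 48564073 to 48595267). COL7A1 was at 22.9, 31.9 and 24.0 FPKM in controls 1 to 3 and 11.2, 21.8 and 9.77 FPKM in KO 1 to KO 3. KO 2 came close to the lowest control, and the groups did not overlap. The log2 difference was -0.90 (SE 0.31, 95% confidence interval -1.62 to -0.18, limma adjusted p = 0.357). Without KO 2, COL7A1 fell by 1.23 (limma adjusted p = 0.0353). COL7A1 passed in 3 of the 20 other settings, this one among them, with limma adjusted p from 0.0349 to 0.790.

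Of the multiplexins, COL18A1, whose end fragment endostatin inhibits vessel growth (chromosome 21, 45405137 to 45513720), was at 2.29, 3.72 and 2.93 FPKM in controls 1 to 3 and 1.15, 0.900 and 0.950 FPKM in KO 1 to KO 3. All 3 DDX17_KO libraries were close together and below the controls, KO 2 included. The log2 difference of -0.98 (SE 0.19, 95% confidence interval -1.41 to -0.54) was the lowest of the 16. At this low level the size depends on the pseudocount: it was -1.46 and -1.54 with pseudocounts of 0.1 and 0.01 and -1.53 by voom. Its limma adjusted p was 0.193 with all libraries, and COL18A1 passed in 0 of 19 other settings, with adjusted p from 0.0505 to 0.653. Its locus overlaps that of SLC19A1, a folate transporter gene on the other strand with a mean of 3.39 FPKM, by 20149 bases.

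COL15A1, the other multiplexin, was the second most abundant collagen by mean (chromosome 9, 98943179 to 99070792), at 34.2, 43.6 and 36.8 FPKM in controls 1 to 3 and 55.5, 21.2 and 27.8 FPKM in KO 1 to KO 3. The DDX17_KO libraries fell on both sides of the controls, with a log2 difference of -0.24 (95% confidence interval -1.03 to 0.55). COL16A1, a fibril-associated collagen (chromosome 1, 31652247 to 31704319), was at 0.525, 0.686 and 0.697 FPKM in controls 1 to 3 and 0.393, 0.414 and 0.509 FPKM in KO 1 to KO 3. Its groups did not overlap, about 12.7 fragments stood behind its value in KO 2, and its log2 difference was -0.18 (limma adjusted p = 0.544), or -0.52 with a pseudocount of 0.01.

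**Figure D2:**
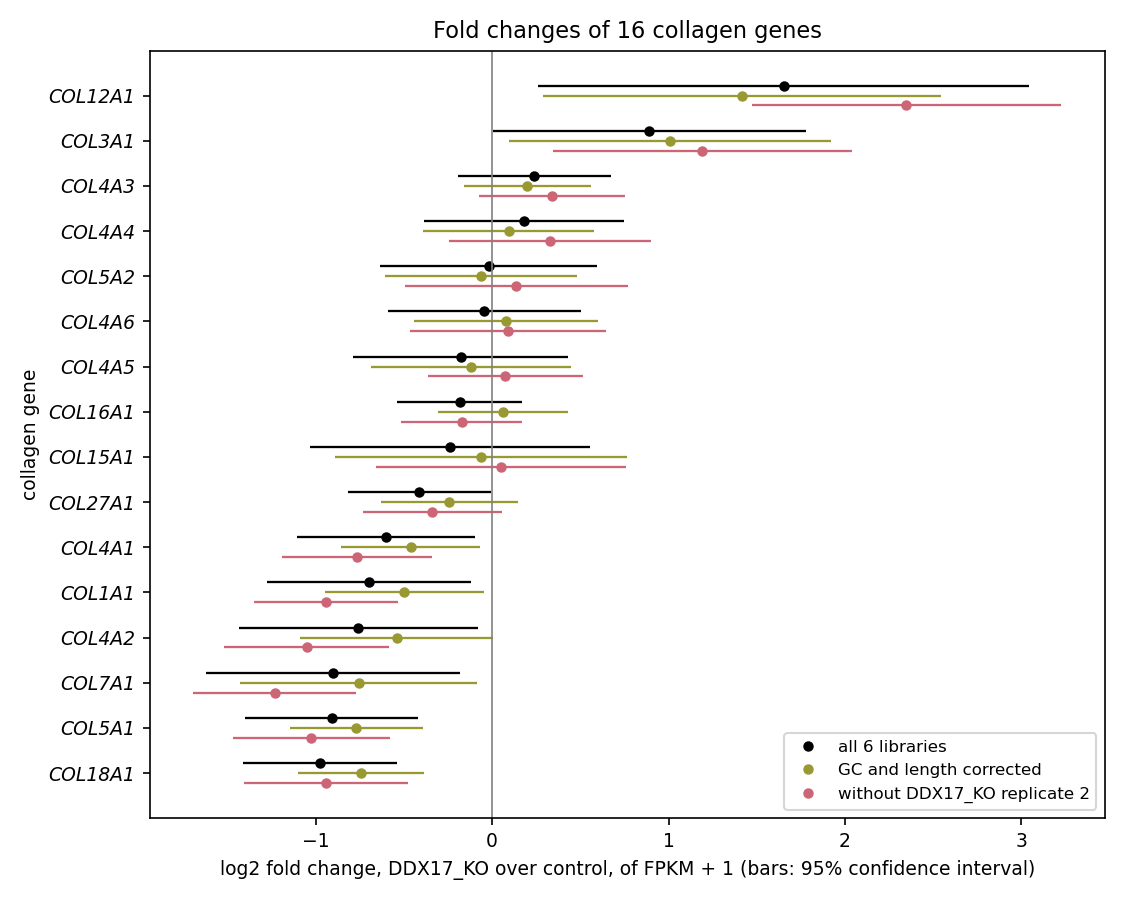
Log2 fold change of FPKM + 1 in DDX17_KO over control for the 16 tested collagen genes, with 95% confidence intervals as bars, from all 6 libraries, after GC and length correction, and without DDX17_KO replicate 2. COL12A1 lies at 1.65, 1.41 and 2.35 in these fits, and COL7A1 at -0.90, -0.76 and -1.23.

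The remaining 28 collagens had a mean under 0.5 FPKM and were not tested. Of these, 3 were listed at 0 in every library (COL6A6, COL11A2 and COL23A1), and 20 never exceeded 0.1 FPKM. The highest single value was 0.949 FPKM, for COL8A1, a network collagen of vessel and cornea membranes, in KO 3. COL6A1, a beaded filament chain abundant in connective tissue, was at 0.197, 0.204 and 0.148 FPKM in controls 1 to 3 and 0.0508, 0.0756 and 0.164 FPKM in KO 1 to KO 3. COL9A3, a fibril-associated chain of cartilage, was at 0.419, 0.606 and 0.378 FPKM in controls 1 to 3 and 0.0423, 0.0420 and 0.0684 FPKM in KO 1 to KO 3. That amounts to about 12.9, 21 and 13.8 fragments in controls 1 to 3 and to 1.1, 0.6 and 1.4 in KO 1 to KO 3, which is under the floor of 3 fragments. In all, 2 untested collagens lay lower without overlap (COL9A3 and COL26A1) and 4 higher (COL17A1, COL24A1, COL25A1 and COL6A5). COL26A1, COL25A1 and COL6A5 rest on at most 3.1, 2.9 and 1.7 fragments in a library, at or under the floor. The share without overlap among all untested genes was not worked out, so these counts are no result about the members. COL17A1, a transmembrane collagen of hemidesmosomes, was at 0.0651, 0.0289 and 0.0644 FPKM in controls 1 to 3 and 0.214, 0.200 and 0.114 FPKM in KO 1 to KO 3. COL24A1, a minor fibrillar collagen, was at 0.0226, 0.0133 and 0.0446 FPKM in controls 1 to 3 and 0.148, 0.0867 and 0.249 FPKM in KO 1 to KO 3. The levels of COL17A1 and COL24A1 rest on at most 13.9 fragments in a library, and no fold is given.

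KO 1 was the highest of the 6 libraries in 5 of the 16 (COL3A1, COL15A1, COL4A5, COL4A6 and COL5A2), against 17.7% of all tested genes. KO 3 was the highest in 3 (COL12A1, COL4A3 and COL4A4), against 18.4%, and KO 2 in 0, against 23%. KO 2 was nearer the control mean than KO 1 and KO 3 both were in 8 of the 16, against 50.3% of all tested genes. The shares for KO 3 and for nearness to the controls were thus those of all genes.

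**Figure D3:**
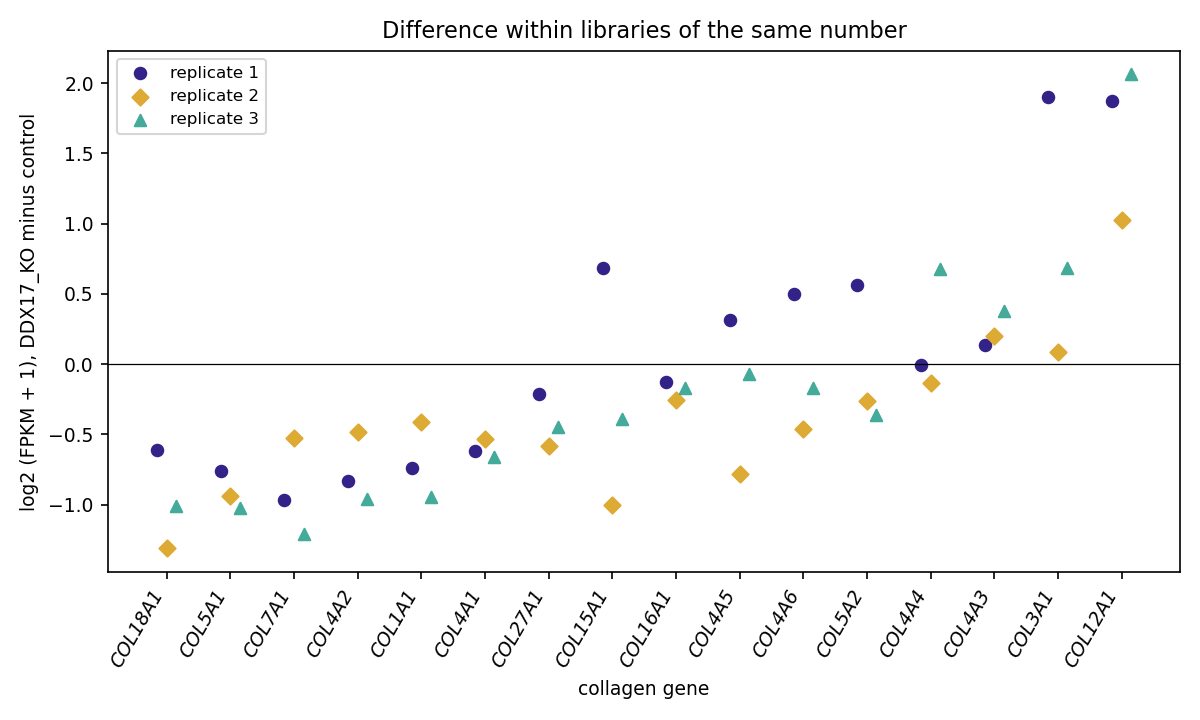
Difference in log2(FPKM + 1) between the DDX17_KO and the control library of the same number, for the 16 tested collagens. All 3 points lie below 0 for COL16A1 and each gene to its left except COL15A1, and above 0 for COL4A3, COL3A1 and COL12A1.

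Libraries numbered 2 stood apart from the others in both groups, so the difference was also read within each number. The DDX17_KO library was below the control of its number in all 3 pairs in 8 of the 16, against 27.5% of all tested genes, and above it in all 3 pairs in 3, against 26.2%. The 8 were COL18A1, COL5A1, COL7A1, COL4A2, COL1A1, COL4A1, COL27A1 and COL16A1. They are the same 8 in which every DDX17_KO library was below every control. Lower pairs follow from that of necessity, so this count adds nothing to the count without overlap. The differences in COL4A1 were alike across numbers 1 to 3, at -0.62, -0.54 and -0.66, while those in COL3A1 were 1.90, 0.085 and 0.68. With the number as a block 0 of the 16 passed, against 0.0256% of all tested genes, and the limma adjusted p of COL12A1 and COL5A1 was 0.0654 for each.

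The direction of the collagens went with the GC content of their transcripts. All 7 tested collagens with a GC content over 60% had a log2 fold change below 0, and the 4 above 0 were among the 6 under 53%. Across the 16 genes, which share the same 6 libraries, Pearson's r between log2 fold change and GC content was -0.78 and Spearman's rho was -0.85. Over all tested genes with a known GC content rho was -0.51 with all libraries and -0.60 without KO 2. The median GC content of the 16 was 55.3%, beside 47.7% for all tested genes. The difference of KO 2 from the mean of KO 1 and KO 3 also went with GC content, with a rho of 0.75 across the 16 and 0.53 across all tested genes. Control 2 did so as well against the mean of controls 1 and 3, with a rho of 0.74 across the 16. The part of GC content in the collagen differences was not tested beyond the correction below.

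**Figure D4:**
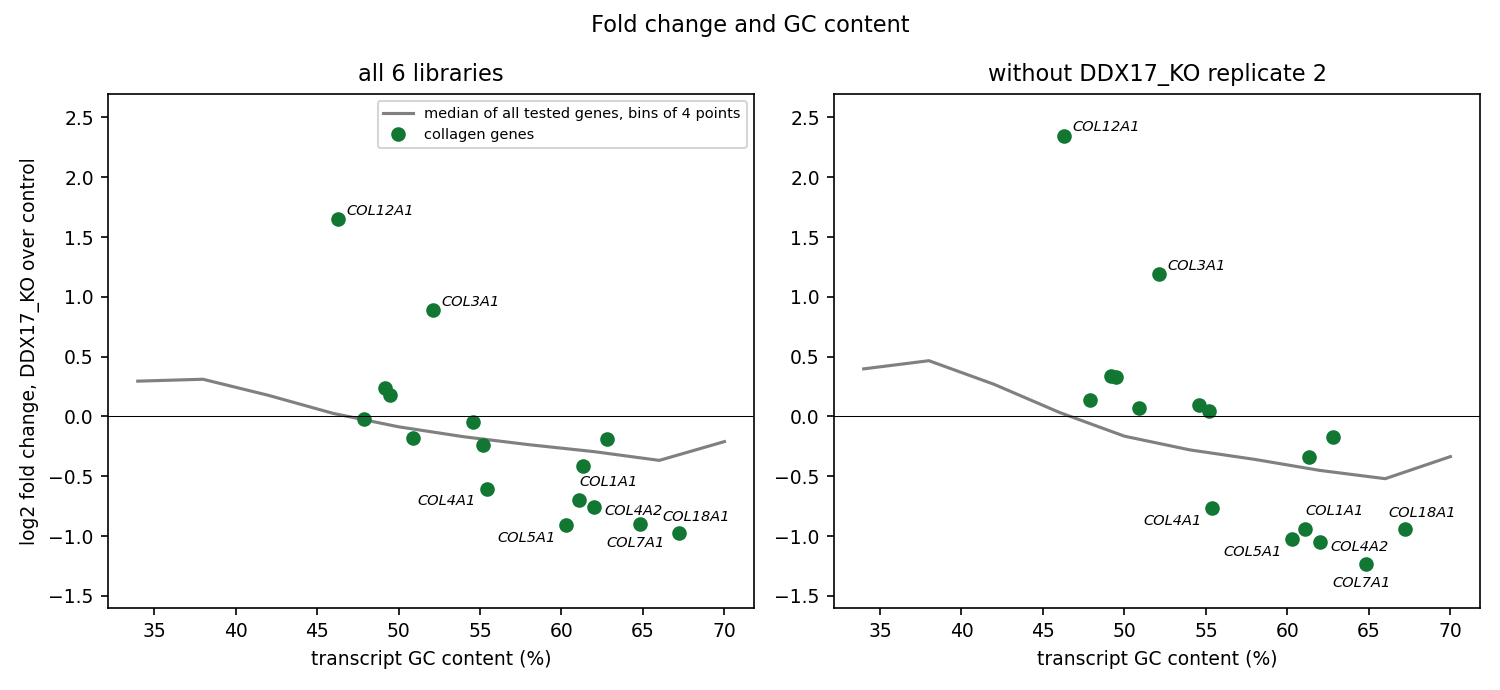
Log2 fold change of the 16 tested collagens (green points) against transcript GC content in percent, with the median of all tested genes in bins of 4 percentage points (grey line), from all libraries on the left and without DDX17_KO replicate 2 on the right. COL12A1 and COL3A1 lie above the grey line, and COL4A1, COL5A1, COL1A1, COL4A2, COL7A1 and COL18A1 below it.

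The larger differences kept their sign after GC content and transcript length were corrected for. COL12A1 then had 1.41 and COL3A1 1.01 on the log2 scale. COL5A1 had -0.77, COL7A1 -0.76, COL18A1 -0.74, COL4A2 -0.54, COL1A1 -0.50 and COL4A1 -0.46. The relation with GC content largely remained in the corrected values of the 16, with Pearson's r of -0.72 and Spearman's rho of -0.73. With all libraries 0 of the 16 passed limma at the adjusted threshold, where 0.0707% of all genes passed, and 7 had an unadjusted p under 0.05, against 15.7% of all genes. Without KO 2 the correction left COL12A1 higher and COL7A1 lower, each with a limma adjusted p of 0.0399, against 1.86% of all genes called. COL5A1 then had -0.87, COL4A2 -0.78 and COL1A1 -0.69, with limma adjusted p of 0.0516, 0.0559 and 0.0529, just above the threshold of 0.05.

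Summed over the 44 genes, collagen FPKM was 257, 298 and 263 in controls 1 to 3 and 397, 221 and 332 in KO 1 to KO 3. The DDX17_KO sums lay on both sides of the controls. COL12A1 made up 15.9%, 6.07% and 15.8% of the sum in controls 1 to 3 and 38.3%, 17.1% and 53.1% in KO 1 to KO 3, more than in any control. The share of COL5A1 was 16.8% ± 1.35 for control and 8.25% ± 3.85 for DDX17_KO (SD, n = 3 libraries each). Shares of 1 sum depend on each other, and no test was made on them.

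**Figure D5:**
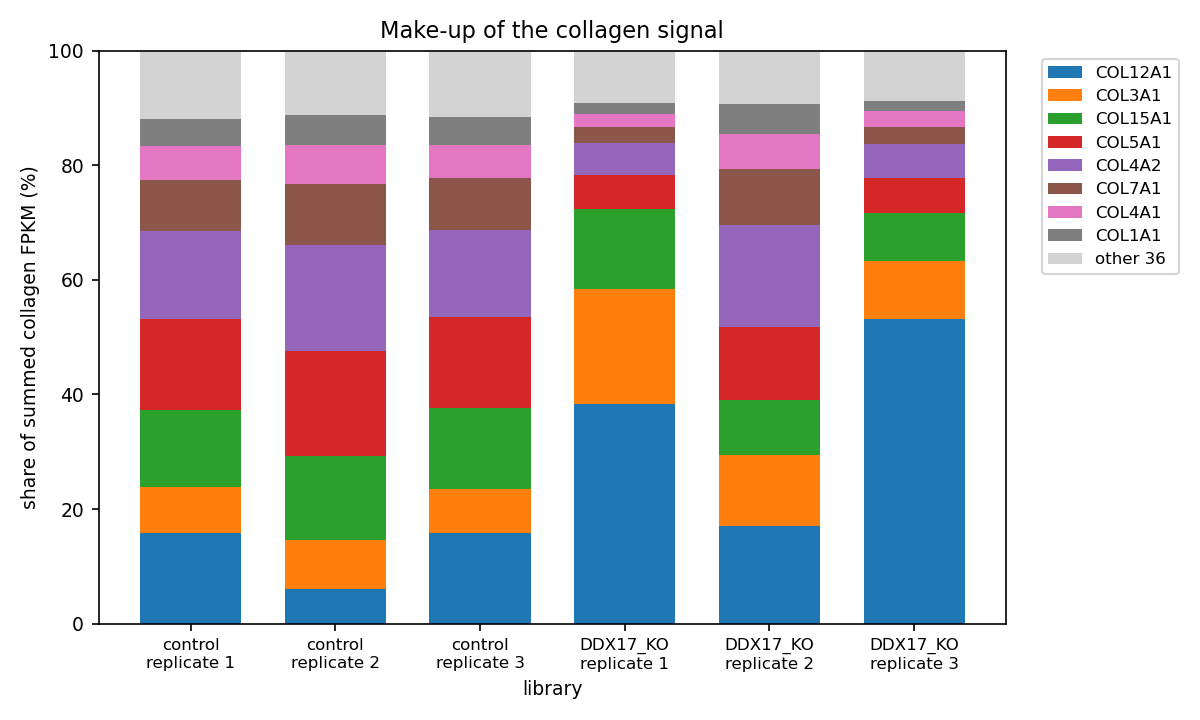
Share of the summed collagen FPKM taken by 8 collagen genes and by the other 36 in each library, as stacked bars to 100%. COL12A1 takes 38.3% and 53.1% in KO 1 and KO 3, and at most 17.1% elsewhere.

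Genes that make, export and bind collagen were read from lists made by function. Of 17 tested genes for chain modification and folding, which hydroxylate and chaperone the chains in the endoplasmic reticulum, 0 passed with all libraries, where 0.0384% of all tested genes passed, and 0 without KO 2, where 3.66% did. At these shares of all genes, 0 calls in lists this short are no result about their members, here and for the lists that follow. The median log2 fold change was -0.18 and turned to 0.0898 after GC and length correction. PPIB, a prolyl isomerase, had 125 ± 11.8 FPKM for control and 133 ± 43.3 FPKM for DDX17_KO (SD, n = 3 libraries each, as for the pairs of means that follow). P4HB, a subunit of prolyl 4-hydroxylase, had 58.1 ± 13.2 and 42.5 ± 10.5 FPKM, and COLGALT1, which adds galactose to collagen, 56.3 ± 7.93 and 50.2 ± 13.4 FPKM. These 3 most abundant members overlapped between the groups.

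Of 11 tested genes for export and propeptide cleavage, 0 passed in either setting (0.0384% and 3.66% of all genes). The median was 0.09, 0.23 without KO 2 and -0.0055 after GC and length correction. The most abundant were the coat and exit site genes TFG, with 18.1 ± 3.70 and 19.4 ± 3.33 FPKM, SEC23A, with 13.3 ± 3.69 and 14.0 ± 4.06 FPKM, and SEC13, with 12.7 ± 0.878 and 10.2 ± 1.37 FPKM. Of these, SEC13 did not overlap between the groups.

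Of 5 tested genes for cross-linking and fibril assembly, 0 passed in either setting (0.0384% and 3.66% of all genes). The median was -0.28, and -0.081 after GC and length correction. PXDN, the peroxidasin that cross-links type IV collagen, was at 14.6, 18.4 and 15.9 FPKM in controls 1 to 3 and 3.61, 11.3 and 12.8 FPKM in KO 1 to KO 3. PXDN was below every control in each DDX17_KO library, most in KO 1, with a log2 difference of -0.90 (limma adjusted p = 0.372). LOXL2, a lysyl oxidase, had 24.6 ± 3.40 and 19.6 ± 2.05 FPKM, without overlap, and THBS1, a matricellular protein gene, 14.3 ± 3.09 and 12.2 ± 6.05 FPKM.

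Collagen receptors had the highest median of these lists, 0.76 over 4 tested members, with 0 called when all libraries were used (0.0384% of all genes). The median was 1.22 without KO 2, where 1 of the 4 was called (3.66% of all genes), and 0.45 after GC and length correction. ITGA2, which pairs with ITGB1 as a collagen-binding integrin, was at 2.67, 0.834 and 1.55 FPKM in controls 1 to 3 and 9.27, 2.15 and 9.26 FPKM in KO 1 to KO 3. As with COL12A1, KO 2 lay within the control range and the others far above it. The log2 difference of ITGA2 was 1.42 (limma adjusted p = 0.357), and without KO 2 ITGA2 rose by 1.99 (limma adjusted p = 0.0338). ITGA1, another alpha chain of this kind, had 2.88 ± 1.07 and 6.15 ± 3.60 FPKM, and ITGB1 41.0 ± 14.3 and 72.2 ± 29.8 FPKM. MRC2, an endocytic receptor that takes up collagen, lay the other way, with 59.5 ± 11.2 and 39.7 ± 9.77 FPKM, without overlap (limma adjusted p = 0.369).

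Of the collagen-degrading enzymes, 2 of 8 were tested and 0 passed in either setting (0.0384% and 3.66% of all genes). The median was -0.10, -0.00032 without KO 2 and -0.18 after GC and length correction. CTSK, the collagen-cleaving cathepsin K, had 0.687 ± 0.105 and 0.670 ± 0.377 FPKM, and FAP, a surface protease that is also a fibroblast marker, 0.885 ± 0.277 and 0.674 ± 0.147 FPKM.

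The levels of other cell types' markers were read beside the collagens. The 8 fibroblast and stellate cell markers summed to 8.30, 7.86 and 8.20 FPKM in controls 1 to 3 and to 6.02, 12.6 and 18.4 FPKM in KO 1 to KO 3. LUM, the small proteoglycan lumican, was at 3.74, 3.20 and 4.09 FPKM in controls 1 to 3 and 1.20, 7.60 and 15.2 FPKM in KO 1 to KO 3. KO 1 had the lowest LUM of the 6 libraries. ACTA2, a contractile actin of stellate cells, was at 1.97, 2.27 and 1.67 FPKM in controls 1 to 3 and 3.13, 2.93 and 1.45 FPKM in KO 1 to KO 3, and POSTN, the matrix protein periostin, was at 0.0507, 0 and 0.0246 FPKM in controls 1 to 3 and 0.421, 0.0835 and 0.240 FPKM in KO 1 to KO 3. KO 1 was the highest library for both of these, and POSTN was named although it stayed under 1 FPKM in every library. The other members under 1 FPKM, PDGFRA, DCN and THY1, were at no more than 0.0161, 0.0632 and 0.0351 FPKM in any library. PDGFRB was at 1.35, 1.79 and 1.45 FPKM in controls 1 to 3 and 0.688, 1.18 and 0.626 FPKM in KO 1 to KO 3. Every DDX17_KO library was thus below every control for PDGFRB, while FAP overlapped between the groups. The markers of this list did not move together.

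The 6 endothelial markers summed to 0.562 to 0.786 FPKM in controls and 0.292 to 0.578 FPKM in DDX17_KO. Red cell markers, led by HBB, summed to 54.0 to 69.6 FPKM in controls and to at most 0.673 FPKM in DDX17_KO, and the 9 hepatocyte markers to 0.661 to 0.862 FPKM and at most 0.0372 FPKM. The red cell genes HBB, HBA1 and HBA2 fell at the adjusted threshold with all libraries (limma), where 0.0384% of all tested genes passed. At that share, the 0 calls among the 16 collagens are no result about them. The 4 epithelial markers summed to 283, 338 and 311 FPKM in controls 1 to 3 and to 255, 264 and 408 FPKM in KO 1 to KO 3, nearly all of it KRT8 and KRT18. No marker list had a member at 0 in all 6 libraries, but some members were above 0 in 1 library only. KDR and HP were at 0.0137 and 0.00692 FPKM in KO 1 alone, and FGB at 0.0422 FPKM in control 3 alone. The part of these markers in the collagen differences was not tested. In such bulk libraries, more cells with a transcript and more transcript per cell cannot be told apart.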

How the data were processed

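The 6 libraries, made from total RNA, were grouped and numbered by their titles. The authors' deposited table holds FPKM for each gene and library. Tools listed in the submitters' processing notes, without roles, are HISAT2, StringTie, edgeR and CASAVA 1.8, with the build hg38. Neither the labels nor the table states the annotation, the strand setting or any filter. Low FPKM values of genes with 1 transcript fell on whole multiples of a step (at least 99.4% within 0.05, up to 20 fragments), which gave the estimated depths. Floors cover counting error only.

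Log2(FPKM + 1) was tested with limma 3.58.1 in R 4.3.3, using its mean-variance trend and Benjamini-Hochberg adjustment across the 15620 genes kept, so differences of low genes come out too small. Single values were tested by exact permutation over 20 arrangements. GC content and length are those of the longest GENCODE 29 transcript (99.64% of tested genes), and the GC and length correction subtracted splines with 4 degrees of freedom. RefSeq promoters were listed for 32 of the 44 collagens. Loci are those of the table. Scripts were tested on simulated data.

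Library numbers were taken as pairs because the deviations from group means correlated at 0.3, 0.546 and 0.214 for numbers 1 to 3. Control 1 with KO 3 gave 0.329 and control 3 with KO 1 gave 0.19, so the correlations do not tell number 1 from number 3. The pairing comes from the data and not from the labels.

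Members and lists were chosen with earlier results of these data known. Named genes were DDX17, all collagens (per library from a mean of 0.5 FPKM; low ones named beyond that were chosen after their values were seen), and from each function list the members called and the 3 with the highest mean. Markers over 1 FPKM in a library were LUM, PDGFRB, ACTA2, FAP, KRT8, KRT18, HBB, HBA1 and HBA2. Alternatives covered pairing, GC content, pseudocount, scaling, filter, limma settings and left-out libraries. Voom on approximate fragments and the GC correction without KO 2 were added after seeing the data.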

Additional observations from a re-analysis of the deposited data

How the results depend on the processing

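Fold changes of COL12A1, COL3A1, COL4A3, COL18A1, COL5A1, COL7A1, COL4A2, COL1A1, COL4A1 and COL27A1 kept their sign in every setting that gave a value, and every collagen call was made without KO 2. Collagens called were 0 with all libraries, 0 to 5 with single libraries left out (5 without KO 2), 6 without both libraries numbered 2 and 2 with GC and length correction without KO 2. Over all genes 0 were higher and 6 lower. The higher count was 1 with GC and length correction, 0 to 304 with single libraries left out, 860 without both libraries numbered 2 and 142 with the correction without KO 2. The lower count was 10, 3 to 268, 516 and 148 in that order, and 3 without a filter. With the replicate number as a block 0 genes were higher and 4 lower, and no collagen call changed, with or without the correction. The block moved the count of genes at an unadjusted p under 0.05 from 2109 to 4460.

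The median of tested collagens, -0.21, was -0.35 and -0.39 with pseudocounts of 0.1 and 0.01, -0.37 by voom and 0.00615 without a filter (41 collagens). It was -0.48 to -0.062 with single libraries left out, -0.0243 without both libraries numbered 2 and 0.0779 with the correction without KO 2. DDX17 ran from -1.76 to -1.04 with single libraries left out and passed without KO 2 (-1.04), without both libraries numbered 2 (-1.08) and with the correction without KO 2 (-1.34).

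Small differences turned sign, and the cause was not tested. With single libraries left out COL15A1 ran from -0.62 to 0.048, COL4A4 from -0.085 to 0.33, COL4A5 from -0.42 to 0.074, COL4A6 from -0.28 to 0.092 and COL5A2 from -0.31 to 0.14. Without both libraries numbered 2, COL15A1 was 0.145, COL4A5 0.121, COL4A6 0.165 and COL5A2 0.101. With the correction without KO 2, COL15A1 was 0.275, COL16A1 0.141, COL4A5 0.125, COL4A6 0.238 and COL5A2 0.0302. With the correction, with or without the block, COL16A1 was 0.0635 and COL4A6 0.0794. COL5A2 was 0.0230 with median-of-ratios scaling. The pseudocount also moved COL4A3, from 0.24 to 0.53 with 0.01. Depth limits the low members: about 12.7 fragments stood behind the lowest tested value.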
